A study of Mus musculus with 2 samples.

Results

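*Trim12a*, *Trim12c*, *Trim5*, *Trim30a*, *Trim30b*, *Trim30d* and *Trim34a*, which form a cluster on mouse chromosome 7, and *Nucb2*, on the same chromosome, were examined as genes linked to *Lyve1*. They are 8 of the 32285 genes counted in this series. They were chosen because earlier results of these data placed several of them among the genes with fewer transcripts in *Lyve1* KO cells. Paralogs that differed less were chosen with them. Differences of these genes between genotypes are therefore given as a description and with no test. Single-cell RNA sequencing (scRNA-seq) was carried out on CD45+ leukocytes sorted from neonatal mouse hearts, with dead cells removed by 7-AAD staining. Mice had myocardial infarction (MI) surgery on postnatal day 2 and were 9 days old at collection, 7 days after MI. One library was made from 5 pooled WT hearts and 1 library from 5 pooled *Lyve1* KO hearts, both infarcted, and no genotype had a replicate library. The KO line lacks *Lyve1* in every cell, not in macrophages alone. The study used C57BL/6 or CD1 mice as wild types, and the strain of these WT hearts and the genetic background of the KO hearts are not given in the sources used here.

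LYVE-1 is a hyaluronan receptor of lymphatic endothelium and of tissue-resident macrophages. TRIM proteins are E3 ubiquitin ligases with a RING finger, a B-box and a coiled coil, many of which are induced by interferon. The mouse *Trim5*, *Trim12a* and *Trim12c* genes are the rodent relatives of primate TRIM5, a factor that binds incoming retroviral capsids and stimulates signalling through the kinase TAK1. TRIM30 proteins are known in mouse myeloid cells as restraints on NF-κB signalling and on the NLRP3 inflammasome. TRIM34 is a close relative of TRIM5. NUCB2 is a calcium-binding protein of the Golgi, and the precursor of the secreted peptide nesfatin-1. A chromosome segment around a targeted gene tends to be inherited with it, so neighbours of *Lyve1* can carry other alleles in a KO line than in the WT mice. Whether they did so here was not tested. Counts were made on the reference genome GRCm38. Whether reads of other alleles were assigned to each gene equally well was not tested, so a low count is not by itself a loss of transcripts.

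The sequences before the start of 5 of the genes are shown because they pair genes that were low in the KO library with close paralogs that were not. *Trim12a* and *Trim5*, both low in the KO library, are set beside *Trim12c*, and *Trim30d*, also low, is set beside *Trim30a*. Each is the 250 bases upstream of the RefSeq start on GRCm38.p6, written 5′ to 3′ on the strand of the gene, with matches to a motif in capitals. They are reference sequences, and those of the WT and KO mice were not examined. The motif is GAAA, any 2 bases and GAAA, on either strand. This is the core of the element bound by interferon regulatory factors.
Trim12a, chr7:104315496-104315745, minus strand: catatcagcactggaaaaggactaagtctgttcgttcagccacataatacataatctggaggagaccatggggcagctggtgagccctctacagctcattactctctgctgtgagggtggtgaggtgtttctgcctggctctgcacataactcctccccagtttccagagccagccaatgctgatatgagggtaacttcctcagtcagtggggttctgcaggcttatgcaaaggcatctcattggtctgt
Trim5, chr7:104288107-104288356, minus strand: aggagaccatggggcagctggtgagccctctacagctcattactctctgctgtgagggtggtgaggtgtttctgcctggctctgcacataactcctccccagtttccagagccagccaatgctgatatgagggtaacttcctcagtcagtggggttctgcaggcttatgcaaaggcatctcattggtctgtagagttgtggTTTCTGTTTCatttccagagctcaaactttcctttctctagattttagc
Trim12c, chr7:104353350-104353599, minus strand: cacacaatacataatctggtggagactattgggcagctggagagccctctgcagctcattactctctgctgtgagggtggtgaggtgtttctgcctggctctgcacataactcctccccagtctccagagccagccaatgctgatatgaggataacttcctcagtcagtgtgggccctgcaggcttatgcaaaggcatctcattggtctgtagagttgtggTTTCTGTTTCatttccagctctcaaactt
Trim30d, chr7:104507850-104508099, minus strand: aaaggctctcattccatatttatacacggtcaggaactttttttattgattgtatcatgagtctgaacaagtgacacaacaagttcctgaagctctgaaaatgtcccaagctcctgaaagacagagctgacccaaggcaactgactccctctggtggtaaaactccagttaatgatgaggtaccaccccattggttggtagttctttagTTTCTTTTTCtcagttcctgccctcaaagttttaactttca
Trim30a, chr7:104465194-104465443, minus strand: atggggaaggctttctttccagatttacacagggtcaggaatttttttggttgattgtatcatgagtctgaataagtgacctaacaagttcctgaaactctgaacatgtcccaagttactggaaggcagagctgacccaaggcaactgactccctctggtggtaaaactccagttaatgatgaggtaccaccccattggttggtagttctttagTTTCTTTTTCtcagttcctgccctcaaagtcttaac

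The promoters were nearly the same within each pair. Those of *Trim12a* and *Trim5* were identical over 191 of 191 aligned bases. That of *Trim12c* matched *Trim12a* at 200 of 210 aligned bases (95.2%) and *Trim5* at 219 of 230 (95.2%). *Trim30d* matched the upstream start of *Trim30a* at 226 of 245 bases (92.2%). The motif began 49 bases before the start of *Trim5*, 29 bases before that of *Trim12c*, 41 bases before that of *Trim30d* and 36 bases before that of *Trim30a*. In *Trim12a* the same letters as in *Trim5* and *Trim12c* began 10 bases after the RefSeq start, outside the bases shown. The GENCODE start of *Trim12a* (chr7:104315466) lies farther downstream, and by that annotation the letters come before the start, as in its paralogs. *Trim34a* also held a match 10 bases after its start, whereas the windows of *Trim30b* and *Nucb2* held none. The bases searched before the RefSeq start of *Trim30b* (chr7:104358647-104358896) lie inside the gene as GENCODE places it. The bases before its GENCODE start were not searched. Over the full window of 300 bases, which adds the bases after the start, a match was present in 3.44% of 32851 promoters. Both genes that were low in the KO library and genes that were not held these letters.

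The 7 *Trim* genes lie within a short stretch from *Trim34a* (chr7:104244457-104262234, plus strand) to *Trim30d* (chr7:104470014-104507849, minus strand), in the GENCODE annotation of GRCm38. In between are *Trim5* (chr7:104263386-104288094), *Trim12a* (chr7:104299894-104315466), *Trim12c* (chr7:104338754-104353362), *Trim30b* (chr7:104355382-104369884) and *Trim30a* (chr7:104409025-104465193), all on the minus strand. *Lyve1* is at chr7:110850607-110863239, so the lower coordinates of the *Trim* genes lie at -6.61 to -6.38 Mb from that of *Lyve1*. *Nucb2* (chr7:116504369-116540584, plus strand) lies at 5.65 Mb. The 8 genes are thus near *Lyve1* on the scale of the chromosome but do not border it.

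Members of the cluster are copies of one another, which limits how reads can be assigned. Of the 50-base stretches in the first 500 bases of their protein-coding transcripts, 61.2% of those of *Trim5* also occur in another gene, 50.6% of those of *Trim12c* and 35.5% of those of *Trim12a*, each time in the other 2. The share was 22.5% for *Trim30d*, most often with *Trim30a*, 13.1% for *Trim34a*, with *Trim34b*, and 3.77% for *Trim30a*. *Trim30b*, *Nucb2* and *Lyve1* shared none. Values of the *Trim5* and *Trim12* genes are therefore the most uncertain of the 8, and levels are also given below as sums over paralogs.

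The WT library held 67968938 unique molecular identifiers (UMIs) and the KO library 61555917. After removal of barcodes of low quality and of doublets, 4187 WT and 3391 KO cells were kept, with median depths of 11106 and 12856 UMIs, and 3 barcodes were shared between the libraries. Cells were grouped into classes from marker genes, and a name such as B cell means B cell-like. The main classes, with at least 100 cells in both libraries, were CCR2- macrophages (1233 WT and 559 KO cells), CCR2+ macrophages (188 and 187), monocytes (415 and 453), neutrophils (349 and 337), B cells (426 and 497) and T cells (370 and 441). Dendritic cells, NK cells, ILC2 and mast cells or basophils were smaller, and 949 WT and 692 KO cells stayed unnamed, with median depths of 1369 and 1025.5 UMIs. Levels are UMIs of a gene per 1000000 UMIs of the same cells (CPM) with exact 95% Poisson intervals, and ratios of UMIs have exact binomial intervals. Both cover counting error only, and no difference could be set against a spread between hearts. A gene was called lower or higher when the log2 ratio of CPM + 10, KO over WT, was at least 1 in size. Genes needed 100 UMIs, summed over both libraries, to be tested in a class.

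Over all kept cells, 3 of the 8 genes were past 2-fold and lower in the KO library (*Trim12a*, *Trim30d* and *Trim5*) and 0 were higher. Over all genes, 0.188% of 13847 were lower and 0.209% higher. These shares are given as background only, since the 8 genes were chosen by this contrast. *Trim34a*, *Trim30b* and *Nucb2* had log2 ratios of -0.65, -0.46 and -0.44, *Trim30a* of -0.20 and *Trim12c* of 0.22. The median over the 8 genes was -0.55, beside -0.02 over all genes tested. Ratios over all kept cells, here and below, also carry the class make-up of the libraries. CCR2- macrophages supplied 29126371 of 63757770 WT UMIs and 15119081 of 57233748 KO UMIs. The part of class make-up in these ratios was not tested. The number of genes past 2-fold differed between classes. In B cells it was 5 of 8 (background 0.332%) and in monocytes 4 of 8 (0.261%). In CCR2- macrophages it was 3 of 8 (0.117%), and in neutrophils 2 of the 5 with enough UMIs (0.674%). In CCR2+ macrophages and in T cells it was 1 of the 4 with enough UMIs (0.27% and 1.42%). The map of ratios by gene and class shows 3 patterns. Some genes were past 2-fold lower wherever they were tested, some were low in some classes, and some were past 2-fold in none.

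**Figure D1:**
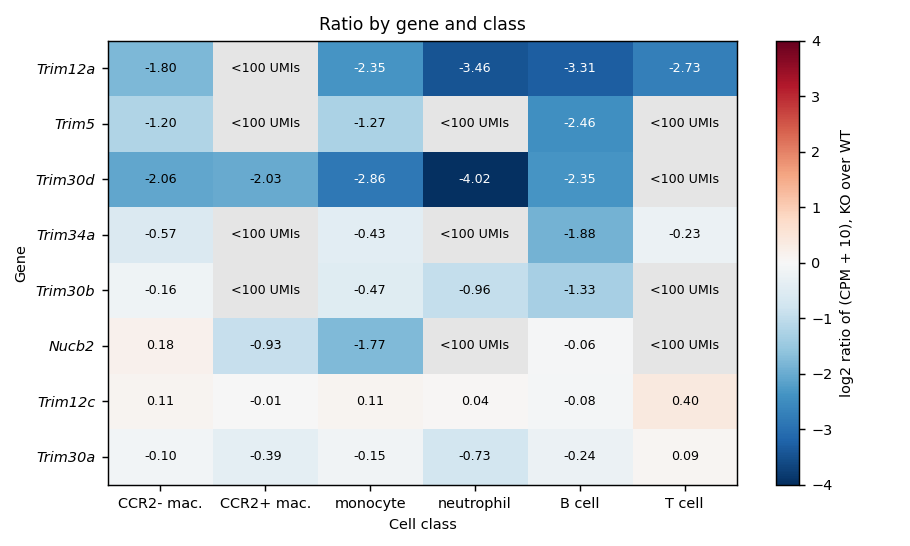
Log2 ratio of CPM + 10, KO over WT, for the 8 genes (rows) in the 6 main classes (columns), with the value printed in each field; grey marks genes with fewer than 100 UMIs over the libraries. *Trim12a*, *Trim5* and *Trim30d* are below -1 wherever they could be called, *Trim34a*, *Trim30b* and *Nucb2* in a single class each, and *Trim12c* and *Trim30a* in none.

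*Trim12a* was all but absent from the counts of the KO library. It had 2656 UMIs in 1429 WT cells and 1 UMI in 1 KO cell, the latter a B cell. The WT level was 41.7 CPM (40.1 to 43.3) and the KO level 0.0175 CPM (0.000442 to 0.0973). In WT cells the gene was present in each class, and in KO cells it was at or near 0 in each class. Among main classes, the WT level was highest in neutrophils (100.2 CPM, 88.9 to 113) and B cells (90.5 CPM, 83.1 to 98.3), whose intervals overlap. It was followed by T cells (56.2 CPM, 50.1 to 63.0) and monocytes (41.0 CPM, 36.7 to 45.7). CCR2- macrophages (24.8 CPM, 23.0 to 26.7) and CCR2+ macrophages (20.7 CPM, 16.7 to 25.3) had the lowest levels. With 0 UMIs in the KO library, and a floor of 3 counts per library, the WT level was at least 125-fold higher in CCR2- macrophages, 133-fold in monocytes, 101-fold in neutrophils and 121-fold in T cells. The small classes held 24 to 116 WT UMIs each and 0 KO UMIs.

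*Trim5* was also near 0 throughout the KO library, with 1033 UMIs in the WT and 13 in the KO library. The levels were 16.2 CPM (15.2 to 17.2) and 0.227 CPM (0.121 to 0.388), and WT was 71.3 times KO (41.5 to 134). B cells had the highest WT level among main classes, 45.5 CPM (40.3 to 51.1), against 0.112 CPM in KO B cells. CCR2+ macrophages had the lowest, 8.49 CPM (6.04 to 11.6), below CCR2- macrophages (13.1 CPM, 11.8 to 14.5) and monocytes (14.4 CPM, 11.9 to 17.3), and neutrophils and T cells overlapped with each of these 3. No KO cell had more than 1 UMI of *Trim5*. The 13 KO UMIs were spread over classes, with 4 in T cells, 3 in neutrophils and 0 or 1 in each of the other named leukocyte classes. *Gm15133*, which the annotation places antisense to *Trim12a*, was low as well, with 152 WT and 11 KO UMIs. Whether strand was used in counting is not given in the sources used here, so reads of the overlap cannot be assigned with certainty.

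**Figure D2:**
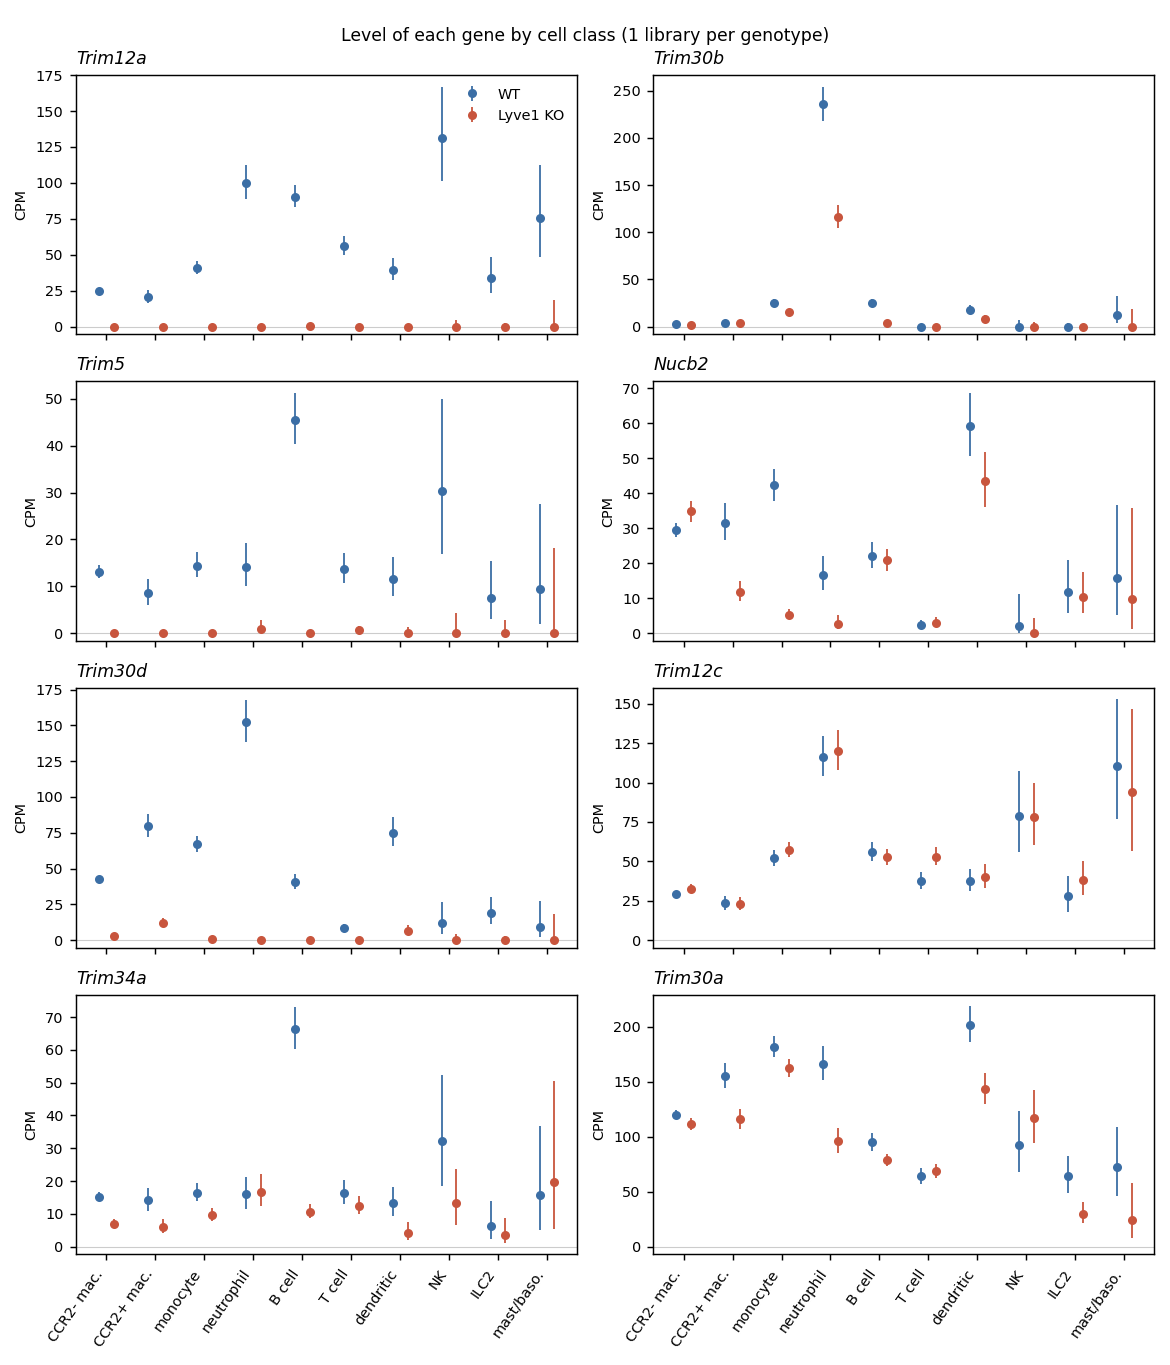
CPM (y axis) of each of the 8 genes in 10 cell classes (x axis) in the WT (blue) and KO (red) library, 1 library each; bars are exact 95% Poisson intervals, which cover counting error only. KO points of *Trim12a* and *Trim5* lie at or near 0 in every class, those of *Trim30d* are above 0 in macrophages and dendritic cells, and *Nucb2* separates in monocytes, neutrophils and CCR2+ macrophages.

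*Trim30d*, the third gene that was low throughout, differed from *Trim12a* in keeping UMIs in some KO cells. It had 3213 UMIs in the WT library (50.4 CPM, 48.7 to 52.2) and 132 in the KO library (2.31 CPM, 1.93 to 2.74). WT levels were highest in neutrophils (153 CPM, 139 to 168), and next came CCR2+ macrophages (79.7 CPM, 71.7 to 88.3), dendritic cells (75.1 CPM, 65.5 to 85.7) and monocytes (67.1 CPM, 61.5 to 73.0), of which neighbours overlap. CCR2- macrophages had 42.6 CPM, B cells 40.9 CPM and T cells 8.41 CPM. The KO library had 0 UMIs in neutrophils and in B cells, so WT was at least 154-fold and 122-fold higher. KO monocytes had 6 UMIs (0.614 CPM, 0.225 to 1.34) and KO T cells 1.

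Of the 132 *Trim30d* UMIs of the KO library, 67 were in CCR2+ macrophages, in 29 cells, 39 in CCR2- macrophages and 18 in dendritic cells. KO CCR2+ macrophages had 12.03 CPM (9.33 to 15.3), or 0.151 of the WT level (0.115 to 0.196). KO dendritic cells had 6.45 CPM (3.82 to 10.2), or 0.0859 of WT. Among CCR2- macrophages, 29 of the 39 UMIs came from the cluster led by *Saa3*, *Prg4* and *Marco*, where the KO level was 9.26 CPM against 33.3 CPM in WT. In the cluster led by *Ccl8*, *Lyve1* and *Folr2*, the KO level was 0.759 CPM against 56.9 CPM. A KO cell held up to 8 UMIs. The KO UMIs were thus uneven across cell types of the same library, beyond counting error.

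*Trim12c*, the closest paralog of the first pair, did not follow them. It had 2583 WT and 2787 KO UMIs, 40.5 CPM (39.0 to 42.1) and 48.7 CPM (46.9 to 50.5). The KO level lay within the counting error of the WT level in 5 main classes, with log2 ratios from -0.08 in B cells to 0.11 in monocytes and CCR2- macrophages. In T cells it was 1.40 times WT (1.18 to 1.68), at 37.7 and 52.9 CPM, but this differed between sexes. In female T cells the levels were 23.3 and 61.5 CPM, KO being 2.64 times WT (1.95 to 3.59), and in male T cells 53.4 and 45.6 CPM, with a ratio of 0.855 (0.661 to 1.11). In NK cells the levels were 78.6 and 78.3 CPM. In neutrophils *Trim12c* had 117 CPM in WT and 120 CPM in KO, while *Trim12a* had 100.2 and 0. Because reads common to both genes could move from one to the other, the 3 genes were also summed. *Trim5*, *Trim12a* and *Trim12c* together had 98.4 CPM in WT against 48.9 CPM in KO, and the sum was lower in KO in each main class, by log2 ratios between -0.80 in monocytes and -1.69 in B cells.

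*Trim30a* is the paralog of *Trim30d* and the member of the group with the best known role in NF-κB signalling. It was past 2-fold in no main class, but KO was below WT in 5 of the 6. It had 8149 WT and 6277 KO UMIs, 128 CPM (125 to 131) and 109.7 CPM (107 to 112). In CCR2- macrophages the levels were 120.1 and 112 CPM, in monocytes 182 and 163 CPM, and in T cells 64.1 and 68.8 CPM. In CCR2- macrophages KO was 0.783 of WT (0.714 to 0.858) in female cells and 1.036 (0.957 to 1.12) in male cells. In CCR2+ macrophages KO was 0.703 of WT (0.594 to 0.831) in female cells and 0.830 (0.716 to 0.963) in male cells. In female T cells KO was 2.002 times WT (1.58 to 2.53) and in male T cells 0.679 of WT (0.550 to 0.840). The lowest ratio was in neutrophils, at 166 and 96.0 CPM, where KO was 0.577 of WT (0.497 to 0.669), and this was not past 2-fold on the log2 scale used (-0.73). In female neutrophils (26 WT and 35 KO cells) KO was 0.366 of WT (0.223 to 0.589), a log2 ratio of -1.33. In male neutrophils it was 0.767 of WT (0.568 to 1.03). *Trim30c*, which lies between *Trim30b* and *Trim30a* and is not among the 8, had 741 WT and 942 KO UMIs. It was higher in KO CCR2- macrophages (13.7 and 28.9 CPM) and in KO B cells (8.02 and 19.6 CPM), and lower in KO CCR2+ macrophages (18.3 and 11.7 CPM). Summed over *Trim30a*, *Trim30b*, *Trim30c* and *Trim30d*, the level was 209 CPM in WT against 139.7 CPM in KO. In neutrophils the sum was 559.6 and 214 CPM, a log2 ratio of -1.35, while in T cells it was 74.0 and 70.5 CPM.

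*Trim34a* was farthest from its WT level in B cells. There it had 66.4 CPM (60.1 to 73.2) in WT and 10.7 CPM (8.69 to 13.1) in KO, and WT was 6.19 times KO (4.94 to 7.81). Each of the 3 B cell clusters showed this, with 107 and 14.0 CPM in the shallow cluster led by *Gm26917*, *Ebf1* and *Tmem163*, 82.1 and 16.1 CPM in that led by *Fcer2a*, *Vpreb3* and *Ighd*, and 52.2 and 7.46 CPM in that led by *Ms4a1*, *Zbtb32* and *Fcrl5*. The WT level of B cells was the highest of the main classes, and the other 5 lay between 14.2 and 16.5 CPM and did not differ beyond their intervals. KO levels in the 6 classes ranged from 6.11 to 16.8 CPM. In CCR2- macrophages the levels were 15.2 and 7.01 CPM, WT being 2.17 times KO (1.76 to 2.71), and in monocytes 16.5 and 9.63 CPM. In neutrophils they were 15.9 and 16.8 CPM, and WT over KO was 0.947 (0.620 to 1.44). The copy *Trim34b* was higher in the KO library, with 14 WT and 142 KO UMIs. In B cells the sum of both copies was 67.2 CPM in WT against 13.4 CPM in KO.

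*Trim30b* had its highest level in neutrophils in both libraries. WT neutrophils had 236 CPM (218 to 254) and KO neutrophils 116 CPM (105 to 129), a ratio of WT to KO of 2.02 (1.78 to 2.31) and a log2 ratio of -0.96, just short of the call. The neutrophil cluster led by *Stfa1*, *Asprv1* and *Csta3* had 317 and 160 CPM, that led by *Acod1*, *Il1rn* and *Csf1* 111 and 37.6 CPM, and the less mature one led by *Ngp*, *Camp* and *Ltf* 53.2 and 19.2 CPM. B cells, with 25.03 CPM in WT and 3.91 CPM in KO, were past 2-fold (WT over KO 6.40, 4.41 to 9.52). Monocytes had 25.2 and 15.4 CPM. Macrophages of either kind had at most 4.36 CPM in both libraries, and T cells, NK cells and ILC2 had 0 UMIs in both.

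*Nucb2* differed between genotypes in monocytes, neutrophils and CCR2+ macrophages but not in B cells. WT monocytes had 42.2 CPM (37.9 to 47.0) and KO monocytes 5.33 CPM (3.98 to 6.98), and WT was 7.93 times KO (5.91 to 10.8). The same direction was seen in each of the 4 monocyte clusters. In the 2 led by *Ace*, which marks the non-classical kind, there were 63 WT and 2 KO UMIs (38.1 and 0.91 CPM) and 31 WT and 3 KO UMIs (39.4 and 2.20 CPM). In the clusters with *Ly6c2*, a gene of classical monocytes, the levels were 48.3 and 6.36 CPM where *S100a8* led, and 29.5 and 10.96 CPM where *Ly6c2* led. Neutrophils had 16.6 WT and 2.64 KO CPM (47 and 8 UMIs, under the minimum for a call). CCR2+ macrophages had 31.6 and 11.9 CPM, a log2 ratio of -0.93.

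In B cells and CCR2- macrophages *Nucb2* was not lower in the KO library. B cells had 22.1 CPM (18.5 to 26.1) in WT and 20.8 CPM in KO, with WT over KO at 1.06 (0.845 to 1.33). CCR2- macrophages had 29.5 CPM (27.6 to 31.6) and 34.8 CPM (31.9 to 37.9), and KO was 1.18 times WT (1.06 to 1.31). This was so in male cells (28.4 and 38.3 CPM, ratio 1.35, 1.17 to 1.55) but not in female cells (31.3 and 29.0 CPM, ratio 0.927, 0.763 to 1.12). Within them the direction was mixed. The cluster led by *Ccl8*, *Lyve1* and *Folr2* had 30.2 and 43.0 CPM, and the one led by *Olfml3*, *Gpr34* and *Sox4* had 30.3 and 20.7 CPM. Dendritic cells had 59.0 and 43.4 CPM, and WT over KO was 1.36 (1.07 to 1.73). The cluster with the highest level of *Nucb2* in either library was the dendritic cell cluster led by *Siglech*, a gene of plasmacytoid dendritic cells, with 294.5 CPM in 16 WT cells and 229 CPM in 11 KO cells, and WT over KO was 1.29 (0.905 to 1.85).

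**Figure D3:**
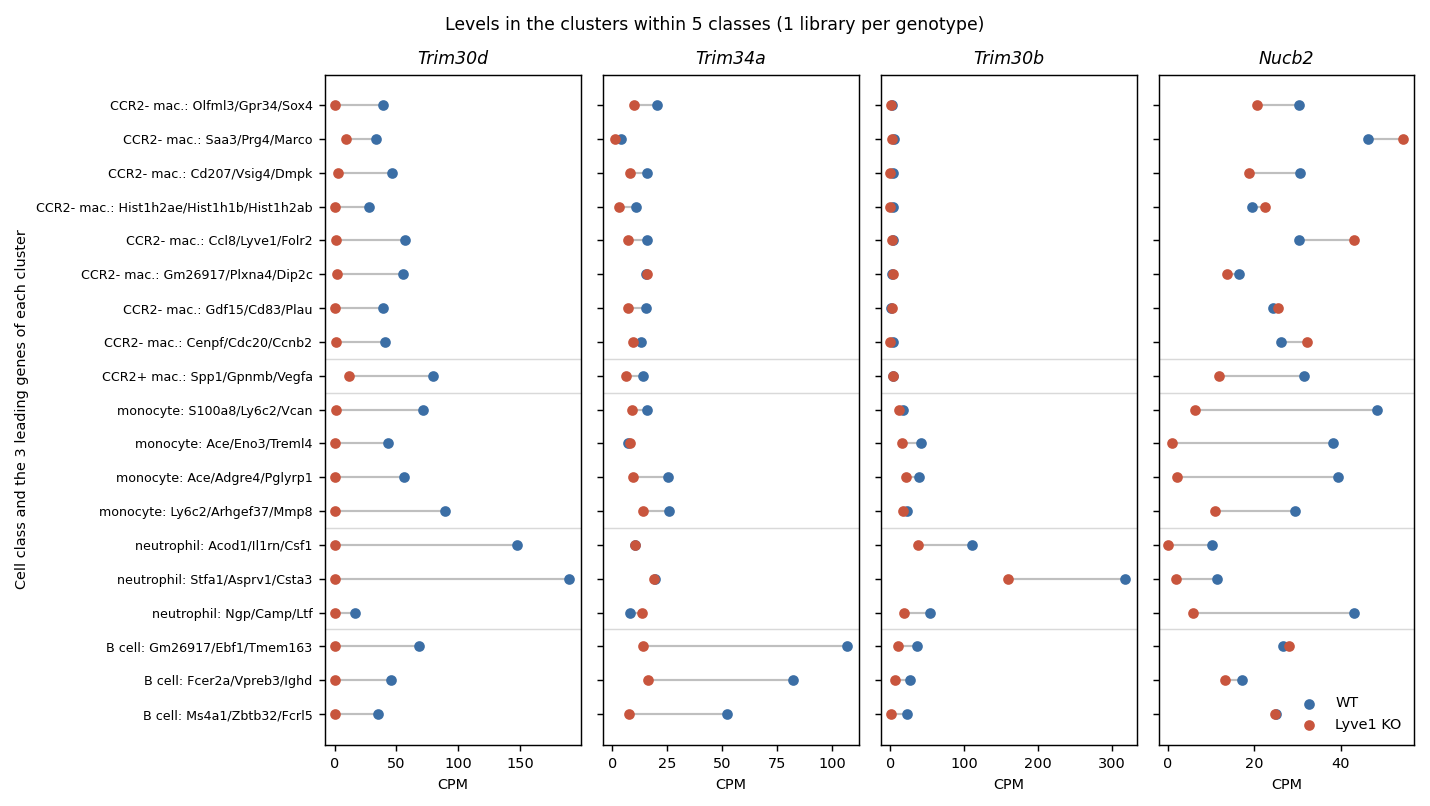
CPM (x axis) in the WT (blue) and KO (red) library for 4 genes in the clusters of 5 classes (y axis, each named by its 3 leading genes), joined by a line. *Trim34a* separates in the 3 B cell clusters, *Nucb2* in the 4 monocyte clusters, and *Trim30d* keeps a KO level of 9.26 CPM in the *Saa3* cluster and 12.03 CPM in CCR2+ macrophages.

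The highest and lowest main classes were the same in both libraries for *Trim12c*, *Trim30a* and *Trim30b*, and the highest was another for *Trim34a* and *Nucb2*. In both libraries *Trim30a* was highest in monocytes and *Trim30b* in neutrophils, and T cells were lowest for each. Intervals were not compared for *Trim30a*. *Trim12c* was highest in neutrophils among main classes of both libraries, and lowest in CCR2+ macrophages. *Trim34a* was highest in B cells in WT and in neutrophils in KO. *Nucb2* was highest in monocytes among main classes in WT and in CCR2- macrophages in KO, where monocytes were also below B cells and CCR2+ macrophages. The T cell class held clusters of immature cells led by *Dntt* (63 WT and 32 KO cells) and *Arpp21* (77 and 40), and levels of the 8 genes in that class mix them with mature cells.

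*Lyve1* itself, the targeted gene, had 15731 WT and 751 KO UMIs. In CCR2- macrophages the WT level was 529.5 CPM and the KO level 20.9 CPM. In several other classes it was higher in the KO library, with 1.74 and 23.3 CPM in CCR2+ macrophages, 0.327 and 5.37 CPM in B cells and 1.07 and 51.6 CPM in ILC2. The counts do not tell which part of the transcript these KO UMIs came from.

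Most tested genes within 10 Mb of *Lyve1* had ratios near 0. Of 437 other genes whose start lies within 10 Mb of that of *Lyve1*, 116 had at least 100 UMIs, 2 were lower in KO, 0 were higher, and 105 had a log2 ratio within 0.5 of 0, with a median of -0.04. Over all genes tested, 0.188% were lower and 0.209% higher. With 1 CPM added in place of 10, 7 of these neighbours were past 2-fold, *Trim34b* and *Plekha7* among them and higher in KO. No share over all genes is given for that setting. The 2 that were lower with 10 CPM added were *Hbb-bs*, a beta-globin gene of red cells (72.6 and 21.2 CPM), and *Rnf141*. *Rnf141*, which encodes a RING finger protein, lies at -0.05 Mb and is the nearest tested gene on that side. It had 49.7 WT and 16.9 KO CPM, and in CCR2- macrophages 82.9 and 26.6 CPM, where WT was 3.12 times KO (2.81 to 3.48). In CCR2+ macrophages WT was 2.17 times KO (1.40 to 3.41) in female cells and 2.22 times (1.54 to 3.22) in male cells. In monocytes *Rnf141* had 18.1 and 14.4 CPM, and in T cells 7.66 and 8.95 CPM. In both of these the interval of the ratio included 1. The next genes on that side, *Ampd3*, *Adm*, *Sbf2* and *Swap70*, had log2 ratios of -0.01, 0.40, -0.52 and -0.09. On the other side *Mrvi1* (0.018 Mb), *Ctr9*, *Eif4g2*, *1700012D14Rik* and *Galnt18* had -0.23, -0.03, -0.05, 0.03 and 0.16.

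**Figure D4:**
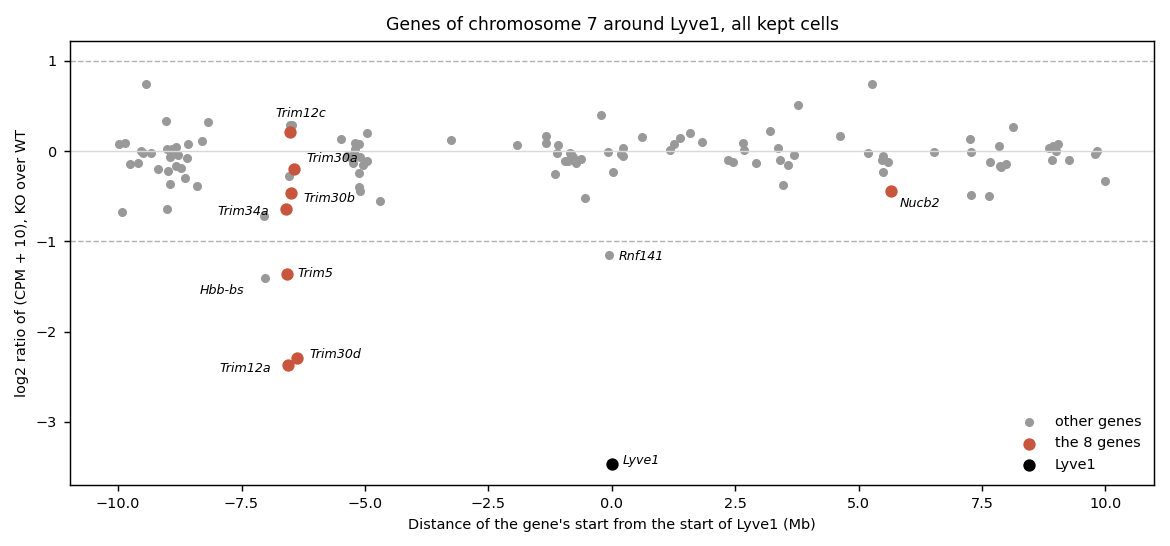
Log2 ratio of CPM + 10, KO over WT, over all kept cells (y axis), for genes with at least 100 UMIs. The x axis is the distance (Mb) of the start of each gene from that of *Lyve1*. Red marks the 8 genes and dashed lines mark log2 ratios of -1 and 1. *Trim12a*, *Trim30d* and *Trim5* lie below -1 among *Trim* genes that do not, and *Rnf141* and *Hbb-bs* are the 2 other genes below -1 apart from *Lyve1*.

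The cluster itself was mixed over its short length. Read in order along the chromosome, the log2 ratios over all kept cells were -0.65 for *Trim34a*, -1.36 for *Trim5*, -2.37 for *Trim12a*, -0.28 for *Gm15133*, 0.29 for *Trim34b*, 0.22 for *Trim12c*, -0.46 for *Trim30b*, 0.29 for *Trim30c*, -0.20 for *Trim30a* and -2.29 for *Trim30d*. The 10 CPM added hold these ratios towards 0. *Trim12a* had 2656 WT UMIs and 1 KO UMI, while *Trim30d* had 3213 and 132, and between them *Gm15133* (152 and 11 UMIs) and *Trim34b* (14 and 142) also differed on their UMIs. The nearest tested genes outside the cluster were *Hbb-bs* and, on the side of *Lyve1*, *Fam160a2*, which had a log2 ratio of 0.13. Next to *Nucb2*, *AV356131* had -0.12 and *Xylt1* -0.01. The *Trim* genes *Trim21*, *Trim68* and *Trim3*, also within 10 Mb, had 0.11, 0.32 and -0.13.

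Both libraries pooled hearts of both sexes, which allowed the genes to be compared within sex. Cells with *Xist* and no Y-linked UMI were taken as female (1038 WT and 984 KO cells) and those with Y-linked UMIs and no *Xist* as male (1982 and 1435). *Trim12a* had 39.0 and 0.0502 CPM in female cells and 39.7 and 0 CPM in male cells. *Trim5* had 14.6 and 0.15 CPM in female cells and 17.3 and 0.194 CPM in male cells, and *Trim30d* 54.5 and 2.76 CPM and 42.9 and 2.36 CPM. *Nucb2* in monocytes was 48.0 and 5.75 CPM in female cells and 38.3 and 5.12 CPM in male cells. *Trim34a* in B cells was 84.3 and 8.70 CPM, and 60.7 and 10.4 CPM. The low KO levels of these genes were therefore present in cells of each sex. Other genes differed between sexes in T cells. Beside *Trim12c* and *Trim30a*, *Trim34a* had 8.39 and 17.3 CPM in female and 28.4 and 10.502 CPM in male T cells. *Trim30a* in B cells was 125.9 and 69.3 CPM in female cells, and 84.7 and 82.1 CPM in male cells. The T cell class holds immature and mature cells, and their part in this was not tested.

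**Figure D5:**
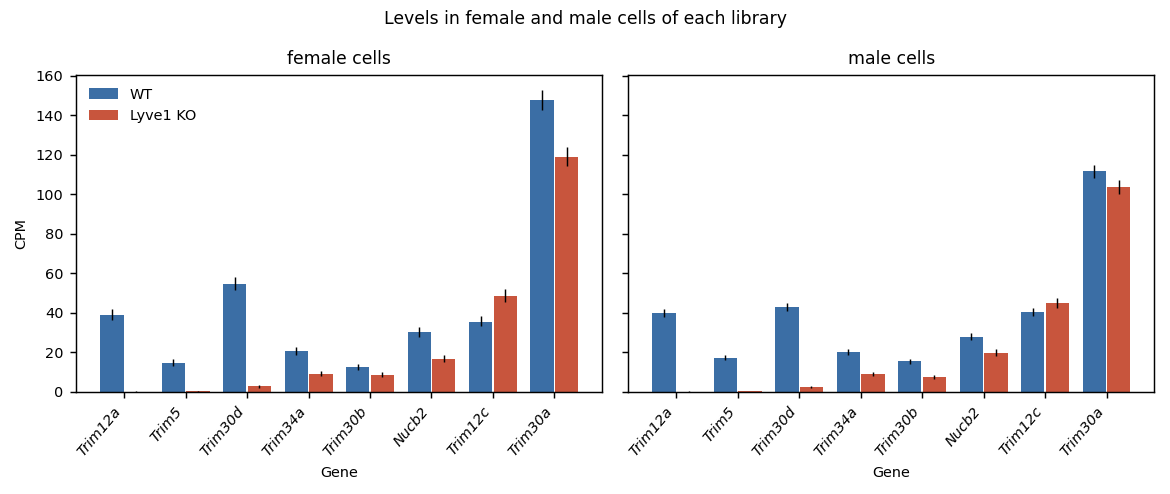
CPM (y axis) of the 8 genes (x axis) in female and male cells of the WT (blue) and KO (red) library, all classes together; error bars are exact 95% Poisson intervals. In both panels *Trim12a*, *Trim5* and *Trim30d* are close to 0 in KO, and *Trim12c* is slightly higher in KO.

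The share of cells with a UMI gave the same picture at equal depth. After thinning named cells to 4300 UMIs, which left out 388 WT and 187 KO cells, *Trim12a* was detected in 19.1% of WT cells (17.7 to 20.6) and in 1 of 2477 KO cells, or 0.0404% (0.00102 to 0.225, exact binomial intervals). Unthinned, it was 41.7% and 0.0375%. *Trim12c* was detected in 17.0% of WT (15.7 to 18.5) and 20.5% of KO cells (18.9 to 22.1), *Trim30d* in 19.2% and 0.807%, and *Trim30a* in 35.8% and 32.1%. For *Trim30d* in the KO library, the thinned share was 5.62% of CCR2+ macrophages and 0 of 451 B cells, which allows a share of up to 0.665% by 3 counts of the total, or 0.815% by the exact interval. *Trim30b* had 0 UMIs in T cells of both libraries. It had 1230 UMIs over all kept WT cells, so a small share of free RNA could also leave none in T cells. The part of free RNA in these counts was not tested.

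No listed gene of the pathways in which these proteins act was past 2-fold over all kept cells. Over all genes tested, 0.188% were lower and 0.209% higher there. At such shares a short list would rarely hold a called gene, so these counts of 0 do not tell whether the pathways were affected. Of 37 interferon-stimulated genes listed, 34 were tested, 0 were past 2-fold and the median log2 ratio was -0.10, the lowest being -0.48 for *Bst2*. By class the median lay between -0.24 in CCR2+ macrophages and 0.43 in T cells, beside -0.02 and -0.08 over all genes of those classes. By class, 1 of the 25 tested was lower in neutrophils (*Ifit1*, -1.22), where 0.674% of all genes were lower. In T cells 1 of 25 was higher (*Ifi27l2a*, 1.39), where 0.502% of all genes were higher. *Ifit2* in monocytes (-0.99) and *Gbp2* in CCR2+ macrophages (-0.91) were just short of the call. Of 13 genes of TAK1 and NF-κB signalling, 0 were past 2-fold over all kept cells or in a main class. The ratios over all kept cells lay between -0.20 for *Nfkbia* and 0.16 for *Ikbkb*. The lowest in a main class was *Nfkb1* in neutrophils (-0.95), just short of the call, and 8 of the 13 were tested there. Among 61 other *Trim* genes, 36 were tested and 0 were past 2-fold, the lowest being *Trim47* (-0.85) and the highest *Trim68* (0.32).

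Genes that could be tested in all 6 main classes were rarely lower in each of them. Of 3942 genes with enough UMIs in each of the 6 main classes, 1 was lower in every class (0.0254%) and 0 were higher. This was *Dynlt1b*, a dynein light chain gene on chromosome 17, with 6473 WT and 6 KO UMIs. It is itself a member of a family of copies: 73.2% of its stretches occur in *Dynlt1c*, *Dynlt1f* or *Dynlt1a*, which had log2 ratios of -0.01, -0.04 and -0.38. *Trim12a*, *Trim5* and *Trim30d* lacked the UMIs for a call in at least 1 main class, so this share is no background for them. No share over all genes is given for being lower in each class where a gene was tested. Because the mean of the 8 genes carries the difference by which they were chosen, likeness to it is a description that follows in part from that choice. *Dynlt1b* had the levels most like this mean over 10 classes and both libraries (Pearson's r = 0.83 over 20 values, among 13847 genes). It was followed by *Tbc1d20* (0.73), *Gnai2* (0.73), *Zc3h7a* (0.72) and *Iscu* (0.72). The 20 values come from 2 libraries.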

How the data were processed

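Live CD45+ cells of 1 WT and 1 *Lyve1* KO library, each from 5 pooled hearts, were measured by 10x Genomics 5′ scRNA-seq. The authors deposited UMI counts per gene and cell barcode made on mm10/GRCm38 with Cell Ranger 8.0.1, as the submitters' processing notes name it, for cell-containing barcodes and without normalization. Reads that match several genes equally are usually not counted by Cell Ranger, which can lower near-identical copies.

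The limits on barcodes were 500 genes, 250 UMIs and a mitochondrial share of 30%. The highest doublet scores (98 WT and 73 KO barcodes) by scrublet, run through scanpy 1.11.5, were left out. The study assigned cells to hearts from sequence variants, which was not repeated here. Seurat 5.3.0 in R 4.3.3 integrated the libraries by CCA on 2000 variable genes (30 dimensions, k = 20, resolution 0.8), in 2 rounds, the second for macrophages, monocytes and related cells. The genes described, other genes of the window and the lists (554 in all) were kept out of clustering. Clusters were named from marker lists; the scoring was set after the data were seen, and a cluster of low depth without its own markers stayed unnamed. UMIs were summed per library and class. With 1 library per genotype no test, p-value or standard error was made. Intervals used SciPy 1.17.1. Promoters are from RefSeq tables of GRCm38.p6, where all 8 genes matched by symbol, and were aligned with Biopython 1.88. The calling rule was tried on simulated counts of CCR2- macrophages and T cells, with counting error only and large changes. The genes changed had higher levels than most of the 8, so calls at low levels were not covered.

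The 8 genes, the gene lists and the rules for naming genes were chosen with earlier results of these data known. Named are the 8 genes, *Lyve1*, neighbours past 2-fold, the 5 nearest on either side with at least 100 UMIs, genes inside the cluster, genes past 2-fold in every main class and the 5 most similar profiles. Genes that border the cluster or *Nucb2*, other *Trim* genes, *Dynlt1* copies and the extremes of lists were named after their values were seen. Alternatives were 1 CPM in place of 10, stricter cell limits, centring, other UMI minimums, female or male cells, no integration, doublets kept, per-cell means and other thinning depths.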

Additional observations from a re-analysis of the deposited data

Results flagged for a closer look

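A pair of genes had opposite directions in different main classes beyond counting error, at least 1 of the directions being past 2-fold. For *Nucb2* the log2 ratio, KO over WT, was -1.77 in monocytes and 0.18 in CCR2- macrophages. The higher level in the latter came from male cells (0.33), and the ratio in female cells was -0.08 (-0.29 to 0.13), within counting error of 0. For *Lyve1* it was -4.13 in CCR2- macrophages and 1.51 in CCR2+ macrophages. With 1 library per genotype these differences between classes were not tested, nor were those between female and male cells.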

How the results depend on the processing

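No paired analysis was possible because each genotype had 1 library. The log2 ratios of the 8 genes over all kept cells kept their direction under the 8 alternatives that could change them, which include leaving out the unnamed cells, chosen after seeing the data. The other 3 of the 11 computed (30 UMIs, no minimum and no integration) leave these sums as they are by construction. They ranged from -5.39 to -2.29 for *Trim12a*, -3.96 to -2.10 for *Trim30d*, -3.81 to -1.28 for *Trim5*, -1.04 to -0.63 for *Trim34a*, -0.73 to -0.26 for *Trim30b*, -0.65 to -0.34 for *Nucb2*, -0.29 to -0.10 for *Trim30a* and 0.12 to 0.37 for *Trim12c*. Adding 1 CPM in place of 10 gave the ratios farthest from 0 for the first 3, because it holds low levels less towards 0. No share over all genes is given for being lower in each main class with enough UMIs. Among the 8 genes this held for 3, *Trim12a* (tested in 5 main classes), *Trim5* (in 3) and *Trim30d* (in 5). Without such a share, this count is a description and cannot be called many or few. With at least 30 UMIs, and with no minimum, the number of these genes was 1 (*Trim12a*), because more classes of low level then counted. Neighbours past 2-fold numbered 2, and 7 with 1 CPM (*Hbb-bt*, *Hbb-bs*, *Gm15133*, *Trim34b*, *Rnf141*, *Sox6* and *Plekha7*). In female cells they were *Hbb-bs* and *Calca*, without *Rnf141*. Genes lower in every main class numbered 1, and 2 with 1 CPM (*Dynlt1b* and *mt-Nd3*) and with 30 UMIs or no minimum (*Dynlt1b* and *Trim12a*). In female cells there were 0. The minimum of 100 UMIs per class also applied there, and female neutrophils were only 26 WT and 35 KO cells. A count of 0 therefore does not show that *Dynlt1b* was not low in female cells. Other *Trim* genes past 2-fold numbered 0, and 2 with 1 CPM (*Trim34b* and *Trim47*). No share over all genes is given with 1 CPM added, so the counts of that setting cannot be called many or few. Shares of cells with a UMI moved with the depth of thinning: for *Trim12a* they were 10.2% of WT and 0% of KO cells at 2000 UMIs. Within classes, the direction differed between female and male cells for several genes. In T cells these included *Trim12c*, *Trim30a* and *Trim34a*. In CCR2- macrophages *Nucb2* had 0.33 in male and -0.08 in female cells, and *Trim30a* 0.05 and -0.33. *Trim12c* in CCR2+ macrophages had -0.30 in male and 0.33 in female cells, each within counting error of 0. Depth limits calls for *Trim5* in CCR2+ macrophages, neutrophils and T cells.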
